A study of Mus musculus with 6 samples.

Results

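Genomic imprinting leaves a gene active mainly on the copy inherited from one parent, and many imprinted genes act on growth before birth. Genes expressed from the paternal copy often promote fetal growth and genes expressed from the maternal copy often restrain it. The insulin-like growth factor Igf2 and its clearance receptor Igf2r are the best-known opposed pair. Here 10 mouse imprinted genes of this kind were followed by their Ensembl IDs: the paternally expressed Igf2 (ENSMUSG00000048583), Dlk1 (ENSMUSG00000040856), Mest (ENSMUSG00000051855), Peg3 (ENSMUSG00000002265) and Plagl1 (ENSMUSG00000019817), and the maternally expressed Igf2r (ENSMUSG00000023830), Grb10 (ENSMUSG00000020176), Cdkn1c (ENSMUSG00000037664), H19 (ENSMUSG00000000031) and Meg3 (ENSMUSG00000021268). The symbols come with the list of IDs. They were 10 of the 48505 genes in the deposited tables and held 3104 of 5193362 windows. They were taken by ID, with no threshold on these values.

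The measurements were 6 libraries of RNA fragments pulled down with a polyclonal antibody against N6-methyladenosine (m6A), a methyl mark on RNA. The hearts came from wild-type FVB/NJ fetuses at gestational day 15, male and female pooled, and the dams were 10 weeks old. In the nano-TiO2 group (3 libraries) the dams had inhaled an engineered titanium dioxide nanoparticle aerosol at a target of 12 mg/m3 for 360 minutes a day on 6 days within an 8-day span from gestational day 5, and in the sham group (3 libraries) they had inhaled filtered air. How litters were divided over the pools is not stated, so each p-value measures the spread between these samples, which may be partly technical. Input libraries were not used here, so an IP level combines the amount of a transcript and its recovery by the antibody, and in bulk hearts fewer cells of a type and less RNA per cell cannot be told apart. No table at hand pairs other Ensembl IDs with symbols, so heart markers and other imprinted genes were not analysed here.

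Read counts were recovered from the normalized values and summed over all windows of all genes. The sums were 20205024, 24031476 and 28251706 in the nano-TiO2 group, against 30862986, 31523675 and 22151447 in the sham group. They are not counts of sequenced reads, and a read under overlapping gene models may enter more than once. The shares of reads below are shares of these sums. The 4 genes with the most reads took 13.6 ± 5.1% of reads in nano-TiO2 libraries and 26.0 ± 8.1% in sham libraries (SD, n = 3 each). The share of reads in the 10 imprinted genes was 0.610%, 1.00% and 0.690% in nano-TiO2 libraries, against 0.509%, 0.512% and 0.382% in sham libraries. Nano-TiO2 replicate 2, which had the lowest share in its top 4 genes (8.03%), was the highest library for 7 of the 10 genes. What that share contributes to the values below was not tested.

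Of the 10 genes, 4 contain annotated microRNAs on their strand, shown here as products of host genes followed below: Mest and Meg3 had higher IP levels in nano-TiO2 hearts, and H19 and Igf2 did not pass the test. The mature sequences, from RefSeq (GRCm38.p6), are shown 5′ to 3′ with the seed (bases 2 to 8, the part that pairs with targets) in capitals. Mature microRNAs were not measured in these libraries. The 9 sequences have 9 different seeds.
miR-335-5p (Mest, chromosome 6): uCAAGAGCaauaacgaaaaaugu
miR-335-3p (Mest, chromosome 6): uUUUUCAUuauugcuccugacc
miR-770-5p (Meg3, chromosome 12): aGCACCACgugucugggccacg
miR-770-3p (Meg3, chromosome 12): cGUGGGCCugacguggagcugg
miR-1906 (Meg3, chromosome 12): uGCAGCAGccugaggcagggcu
miR-675-5p (H19, chromosome 7): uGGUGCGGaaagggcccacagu
miR-675-3p (H19, chromosome 7): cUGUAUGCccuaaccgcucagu
miR-483-5p (Igf2, chromosome 7): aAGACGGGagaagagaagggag
miR-483-3p (Igf2, chromosome 7): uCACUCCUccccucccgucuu

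Of the 10 genes, 6 had higher IP levels in nano-TiO2 than in sham hearts: Peg3, Meg3, Plagl1, Grb10, Mest and Igf2r, although the direction of Igf2r turned when a trend with gene length was removed. By limma 0 of the 10 fell, also at an unadjusted p under 0.05. The rises ranged from 1.65 times for Igf2r to 4.21 times for Peg3. IP level is the sum of a gene's windows in the normalized table, tested with limma on log2(value + 1) over 18566 genes with Benjamini-Hochberg adjustment at 0.05. In the same fit 24.0% of all tested genes were called higher and 12.0% lower. The median log2 difference was 0.83 over the 10 genes against 0.13 over all genes tested. These shares differed with gene length: of tested genes in 5 equal groups by number of windows, the longest group (265 or more) had 55.5% called higher. Peg3, Meg3, Plagl1, Grb10 and Igf2r, with 312 to 723 windows, fell in that group. Mest (157 windows) fell in the middle group, where 19.1% were called higher. Paternally and maternally expressed genes were called higher equally often, 3 of 5 each. In 6 of 10 genes the groups did not overlap, all with nano-TiO2 higher, and this held for 30.9% of all tested genes.

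**Figure D1:**
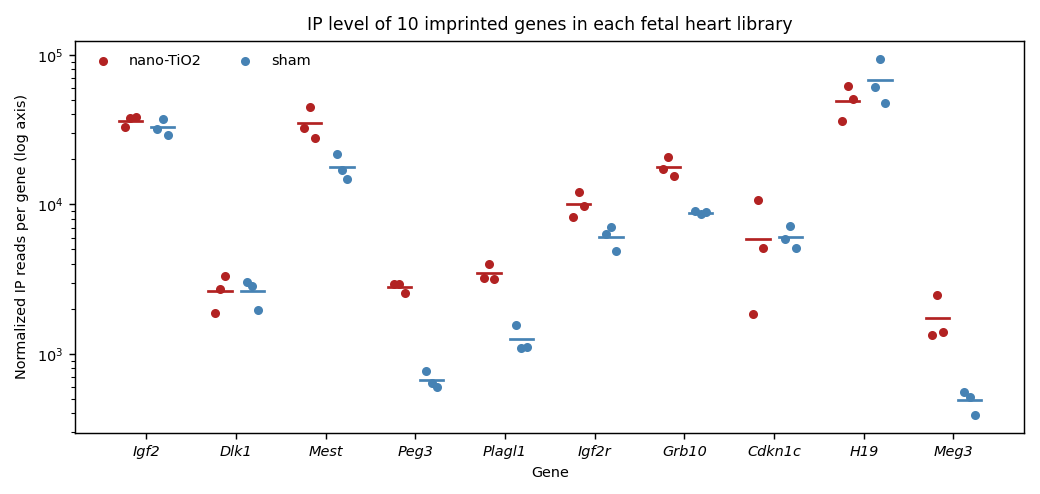
Normalized IP reads per gene (vertical log axis) for each of the 10 genes (horizontal axis); points are the 3 nano-TiO2 (red, left) and 3 sham (blue, right) libraries and bars their means. The groups are apart for Mest, Peg3, Plagl1, Igf2r, Grb10 and Meg3 and overlap for Igf2, Dlk1, Cdkn1c and H19.

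Among the growth promoters, Igf2 encodes the main fetal growth factor of its family and was among the most abundant genes of these libraries (rank 60 of 48505 by mean IP level). Its normalized IP level was 32750, 37921 and 38105 in nano-TiO2 libraries, against 31838, 37443 and 28871 in sham libraries. The groups overlapped, and the log2 difference was 0.15 ± 0.15 (SE; 95% interval -0.19 to 0.50; limma adjusted p = 0.47). Quantile normalization gave 0.63 (adjusted p = 0.025) and equal library totals 0.65 (adjusted p = 0.016), past the threshold, while removal of the trend with gene length gave -0.29 (adjusted p = 0.16). Igf2's reads are also uncertain for another reason: the unnamed gene model ENSMUSG00000115302 held 88.4 to 92.4% as many reads in each library, and its windows followed those of Igf2. That model was picked out as the gene whose pattern over the 6 libraries was most like Igf2's, with a root mean square log2 difference of 0.020, and ENSMUSG00000108815 was next at 0.034.

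Dlk1 encodes a transmembrane and secreted protein of the Delta-like family. Its level was 1877, 2726 and 3312 in nano-TiO2 libraries, against 3042, 2857 and 1975 in sham libraries. The 2 ranges covered nearly the same span, and the log2 difference was -0.0060 ± 0.24 (95% interval -0.55 to 0.54; limma adjusted p = 0.99), so changes within that interval remain possible.

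Mest, which encodes a protein with a hydrolase fold and is named for its expression in mesoderm, was higher in nano-TiO2 hearts. It measured 32258, 44478 and 27763 in nano-TiO2 libraries, against 21757, 17057 and 14873 in sham libraries. Every nano-TiO2 library was above every sham library, and the mean was 1.95 times that of sham (log2 0.95 ± 0.21, limma adjusted p = 0.0085).

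Peg3 encodes a zinc-finger protein, and it had the largest difference of the 10 genes. It measured 2934, 2934 and 2538 in nano-TiO2 libraries, against 763, 639 and 597 in sham libraries. The libraries within each group lay close together, far from those of the other group, with a log2 difference of 2.08 ± 0.15 (4.21 times, limma adjusted p = 0.00054).

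Plagl1, a zinc-finger transcription factor that regulates other imprinted genes, also rose. Its level was 3235, 3999 and 3147 in nano-TiO2 libraries, against 1566, 1095 and 1106 in sham libraries. Every nano-TiO2 library was well above the highest sham library, and the log2 difference was 1.47 ± 0.18 (2.76 times, limma adjusted p = 0.00084).

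Among the genes that restrain growth, Igf2r encodes the receptor that takes up Igf2 for breakdown in lysosomes. It measured 8213, 12101 and 9760 in nano-TiO2 libraries, against 6375, 7008 and 4876 in sham libraries. The groups did not overlap, and the log2 difference was 0.72 ± 0.19 (1.65 times, limma adjusted p = 0.018). This was the only one of the 6 calls that was lost on leaving out 1 library: the adjusted p was 0.055 without nano-TiO2 replicate 3 and 0.053 without sham replicate 3, and the difference was -0.03 with the length trend removed (adjusted p = 0.92).

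Grb10, an adaptor that dampens signalling by insulin and insulin-like growth factor receptors, was about double its sham level. It measured 17123, 20618 and 15529 in nano-TiO2 libraries, against 9003, 8621 and 8833 in sham libraries. The sham libraries were close to each other and all below the nano-TiO2 ones, with a log2 difference of 1.00 ± 0.14 (2.01 times, limma adjusted p = 0.0015).

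Cdkn1c encodes an inhibitor of cyclin-dependent kinases, and it was the most variable of the 10 genes in nano-TiO2 libraries. It measured 1841, 10624 and 5069 in nano-TiO2 libraries, against 5831, 7185 and 5145 in sham libraries. The nano-TiO2 group held both the lowest and the highest library, and the log2 difference of -0.37 ± 0.51 had a 95% interval of -1.54 to 0.79 (limma adjusted p = 0.61). Without nano-TiO2 replicate 1 the difference was 0.29, and its sign also turned under quantile normalization and equal totals.

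Of the 2 long noncoding RNAs, Meg3 passed the test and H19 did not. H19, which lies next to Igf2 and shares its imprinting control, had the highest level per window. It measured 36005, 61767 and 50395 in nano-TiO2 libraries, against 60593, 94394 and 47643 in sham libraries. The groups overlapped, and sham replicate 2 was the highest library (log2 difference -0.43 ± 0.28, 95% interval -1.06 to 0.20, limma adjusted p = 0.26). H19's sign turned under quantile normalization (0.10) and equal totals (0.07).

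Meg3, which neighbours Dlk1 and is expressed from the opposite parental copy, rose. It measured 1348, 2483 and 1393 in nano-TiO2 libraries, against 560, 516 and 392 in sham libraries. The groups were far apart, with a log2 difference of 1.79 ± 0.25 (3.56 times, limma adjusted p = 0.0014), which became 0.65 (adjusted p = 0.089) with the length trend removed.

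Gene length moved with these differences. Over all tested genes, the median log2 difference was -0.48, -0.09, 0.11, 0.34 and 0.81 in 5 equal groups of genes from the fewest to the most windows. At the ends of their range the 10 genes followed the same gradient. Cdkn1c (81 windows) and H19 (98 windows) were the shortest and had negative differences (signs that turned under quantile normalization and equal totals). Peg3 (544 windows) and Meg3 (723 windows) were the longest and had the largest. The genes between did not run in order of length: Plagl1 (312 windows) had 1.47, above Grb10 (363 windows, 1.00) and Igf2r (372 windows, 0.72). Mest, with 157 windows, lay in the middle of the 5 length groups (109 to 171 windows) and rose. With the trend on length removed from each library, Peg3 (log2 1.10, adjusted p = 0.0056), Plagl1 (0.84, adjusted p = 0.016) and Mest (0.72, adjusted p = 0.039) stayed past the threshold, 3 of 10 genes, against 11.2% of all tested genes called higher in that fit. Grb10 (0.27, adjusted p = 0.19), Meg3 and Igf2r did not.

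**Figure D2:**
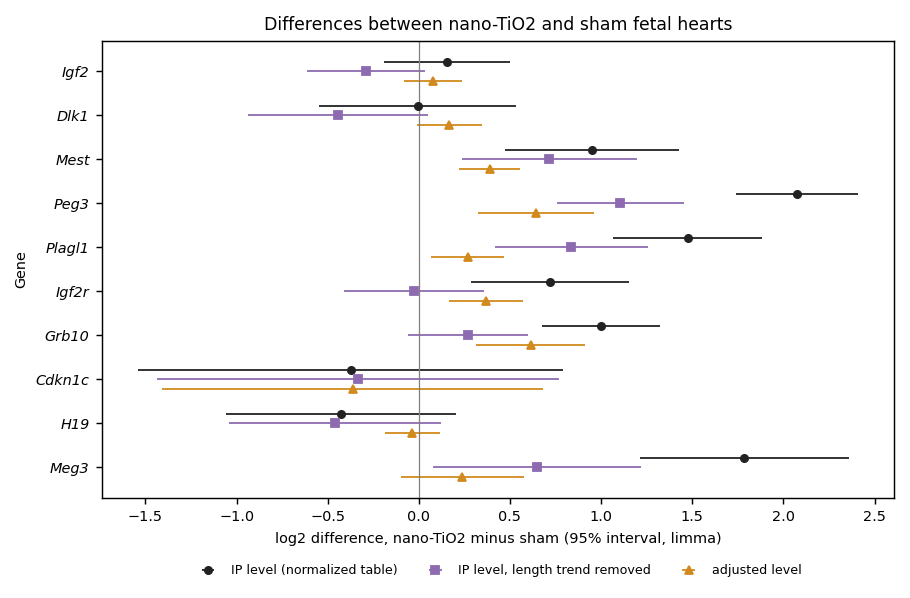
Log2 difference of nano-TiO2 minus sham (horizontal axis, with 95% interval from limma) for each gene (vertical axis): IP level (black circles), IP level with the length trend removed (purple squares) and adjusted level (orange triangles). Peg3, Plagl1 and Mest lie right of 0 with their whole intervals by all 3 measures. Grb10 and Meg3 also lie right of 0 by all 3. The interval of Grb10 crosses 0 with the length trend removed, and that of Meg3 in adjusted level. Igf2r lies at -0.03 with the length trend removed.

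Per window, which puts genes of different length on one scale, the order of mean normalized levels was H19 (504 in nano-TiO2, 689 in sham), then Mest and Igf2, then Cdkn1c (72.2 and 74.7), Grb10 (48.9 and 24.3), Igf2r (26.9 and 16.4), Dlk1 (11.7 and 11.6), Plagl1 (11.1 and 4.02), Peg3 (5.15 and 1.22) and Meg3 (2.41 and 0.677). The division was by all windows of a gene, read or not. No library had a read in 363 of 723 windows of Meg3 and 98 of 226 of Dlk1, against 6 of 98 of H19. What these windows contribute to the order was not tested. Mest and Igf2 changed places. Mest was at 222 ± 55 and Igf2 at 159 ± 13 reads per window in nano-TiO2 libraries, while Mest was at 114 ± 22 and Igf2 at 143 ± 19 in sham libraries (SD, n = 3 each). Each of the 3 nano-TiO2 libraries had more Mest than Igf2 per window, and each of the 3 sham libraries had less, although in sham replicate 1 the values were 139 and 140. In nano-TiO2 libraries Dlk1 and Plagl1 did not differ beyond their spread.

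The ratio of 2 genes within one library does not depend on that library's scaling. H19 over Igf2 was 1.10, 1.63 and 1.32 in nano-TiO2 libraries, against 1.90, 2.52 and 1.65 in sham libraries. Igf2r over Igf2 was 0.251, 0.319 and 0.256 in nano-TiO2 libraries, against 0.200, 0.187 and 0.169 in sham libraries. Meg3 over Dlk1 was 0.718, 0.911 and 0.421 in nano-TiO2 libraries, against 0.184, 0.181 and 0.198 in sham libraries. None of these ratios overlapped between groups. H19 over Igf2 was lower, and Meg3 over Dlk1 higher, in every nano-TiO2 library than in every sham library. Of all tested genes, 49.5% had IP levels without overlap in either direction, and the share over other gene pairs was not computed. The paired genes also differ in windows: 98 in H19, 228 in Igf2, 372 in Igf2r, 723 in Meg3 and 226 in Dlk1. The length trend was not removed from these ratios, and its part in them was not tested. Each of these ratios reached the smallest two-sided exact permutation p that 3 against 3 allows, 0.1 (adjusted p = 0.2 over 8 ratios compared), so none could pass 0.05. Cdkn1c over Igf2 ranged from 0.0562 to 0.280 in nano-TiO2 libraries, against 0.178 to 0.192 in sham libraries (exact permutation p = 0.7). In the adjusted table H19 over Igf2 was 1.65, 1.64 and 1.57 in nano-TiO2 libraries, against 1.67, 1.88 and 1.70 in sham libraries, again without overlap (exact permutation p = 0.1). Meg3 over Dlk1 in that table was 0.337, 0.475 and 0.418 in nano-TiO2 libraries, against 0.346, 0.465 and 0.357 in sham libraries, and these overlapped (exact permutation p = 0.9). Igf2r over Igf2 also overlapped there, at 0.245, 0.234 and 0.277 in nano-TiO2 libraries, against 0.187, 0.245 and 0.189 in sham libraries (exact permutation p = 0.3). The pairs were picked with the values known.

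**Figure D3:**
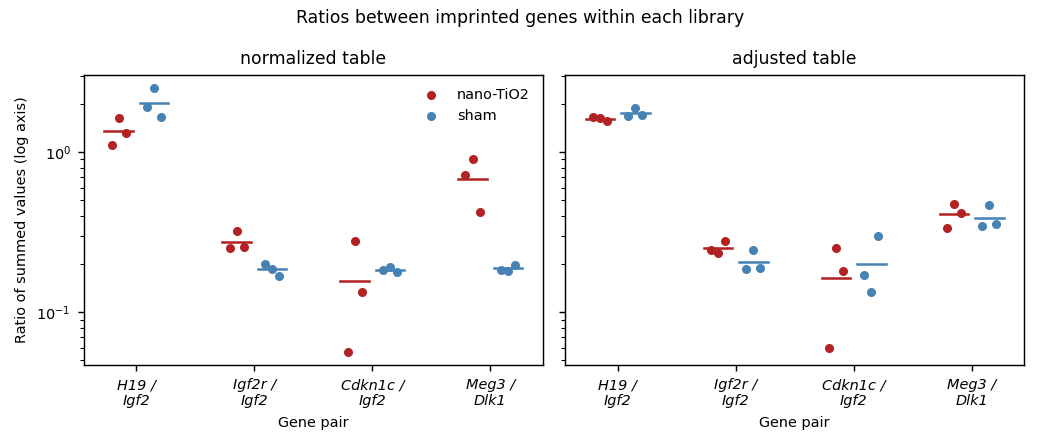
Ratio of summed values between 2 genes in the same library (vertical log axis) for 4 gene pairs (horizontal axis) in the normalized (left) and adjusted (right) tables; points are the 3 nano-TiO2 (red, left) and 3 sham (blue, right) libraries and bars their means. Igf2r over Igf2 and Meg3 over Dlk1 are apart in the normalized table and overlap in the adjusted one.

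The adjusted table holds the same windows multiplied by 1 factor per gene and library, in all 162014 pairs of gene and library checked. The sources do not state what the factor was made from. In it, 0 of 10 genes and 0 of 19361 genes tested passed the adjusted threshold with limma (background 0%, smallest adjusted p 0.179). At an unadjusted p under 0.05, 5 of the 10 genes were higher in nano-TiO2 and 0 lower, against 16.5% of all tested genes higher: Peg3 (log2 0.64), Grb10 (0.61), Mest (0.39), Igf2r (0.37) and Plagl1 (0.27). The adjusted levels of Peg3 were 1730, 2027 and 2081 in nano-TiO2 libraries, against 1187, 1544 and 1047 in sham libraries. Those of Grb10 were 14340, 16084 and 17005 in nano-TiO2 libraries, against 9509, 13188 and 8745 in sham libraries. In both genes sham replicate 2 stood nearest to the nano-TiO2 group. Mest had adjusted levels of 28865, 28823 and 29863 in nano-TiO2 libraries, against 22036, 24442 and 20537 in sham libraries, with little spread within the nano-TiO2 group.

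Groups did not overlap in the adjusted table for those 5 genes and for Dlk1, 6 of 10, against 19.4% of all tested genes with nano-TiO2 higher. Dlk1 had 2797, 2816 and 2776 in nano-TiO2 libraries, against 2530, 2443 and 2499 in sham libraries, so the spread it showed in the normalized table was almost gone. Meg3 had 942, 1338 and 1159 in nano-TiO2 libraries, against 876, 1136 and 892 in sham libraries, and the 3.56-fold difference of the normalized table was 1.18-fold here. The calls depended on sham replicate 2. Without it, Peg3 (0.80), Grb10 (0.79), Mest (0.46) and Igf2r (0.45) passed (limma adjusted p = 0.028 for each), 4 of 10 genes against 8.32% of all genes tested. With array quality weights, 6 of 10 passed (these 4, Plagl1 and Meg3), against 22.5% of all tested genes called higher.

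The factor between the tables, normalized over adjusted, was higher in nano-TiO2 without overlap in 4 of the 10 genes, against 20.3% of 13676 genes whose factor could be recovered closely. It was 1.46, 1.79 and 1.23 for Meg3 in nano-TiO2 libraries, against 0.630, 0.451 and 0.434 in sham libraries. For Peg3 it was 1.72, 1.47 and 1.24 in nano-TiO2 libraries, against 0.615, 0.423 and 0.548 in sham libraries. Plagl1 (1.39 ± 0.11 in nano-TiO2, 0.606 ± 0.14 in sham) and Igf2r (1.12 ± 0.21 in nano-TiO2, 0.876 ± 0.10 in sham) were the others (SD, n = 3 each). In Grb10, which has more windows than Plagl1 (363 against 312), the factor overlapped, at 1.19, 1.28 and 0.914 in nano-TiO2 libraries, against 0.947, 0.653 and 1.01 in sham libraries.

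Windows of 25 nucleotides show where along each gene the reads lay. A window was tested if it averaged 10 or more normalized reads. Of these, 169 of 203 in Grb10, 100 of 105 in Mest, 42 of 59 in Plagl1 and 36 of 142 in Igf2r passed the limma test with nano-TiO2 higher, against 3.88% of 250317 windows tested called higher. The sham mean was under 10 in 2 of the tested windows of Grb10, 0 of Mest, 18 of Plagl1 and 18 of Igf2r. Among windows with a sham mean of at least 10, 168 of 201 passed in Grb10, 100 of 105 in Mest, 35 of 41 in Plagl1 and 31 of 124 in Igf2r. In Peg3 it was under 10 in all 48 tested windows and in Meg3 in 45 of 50, so these windows were tested because nano-TiO2 was high there, and their calls are not counted as support. Windows of one gene share their reads' source and are not independent, so these counts follow the gene levels. No window of Igf2 (175 tested), H19 (88), Cdkn1c (74) or Dlk1 (63) passed. In limma's test of whether a window moved otherwise than the rest of its gene, 0 windows of the 10 genes passed, against 0.0465% of 249423 windows, although 8123 of all those windows had an unadjusted p under 0.05. With windows down to a mean of 1 included, 3 of 1725 windows of the 10 genes passed that test, against 0.0633% of 1023152 windows.

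Windows are numbered from the 3′ end in genes on the minus strand and from the 5′ end in the others. This was read from the spacing of the first windows, which is uneven in 23266 genes and even in 25239, and it matched the RefSeq strand for all 8 of the 10 genes that had one. The position of H19 and Cdkn1c rests on the spacing alone.

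**Figure D4:**
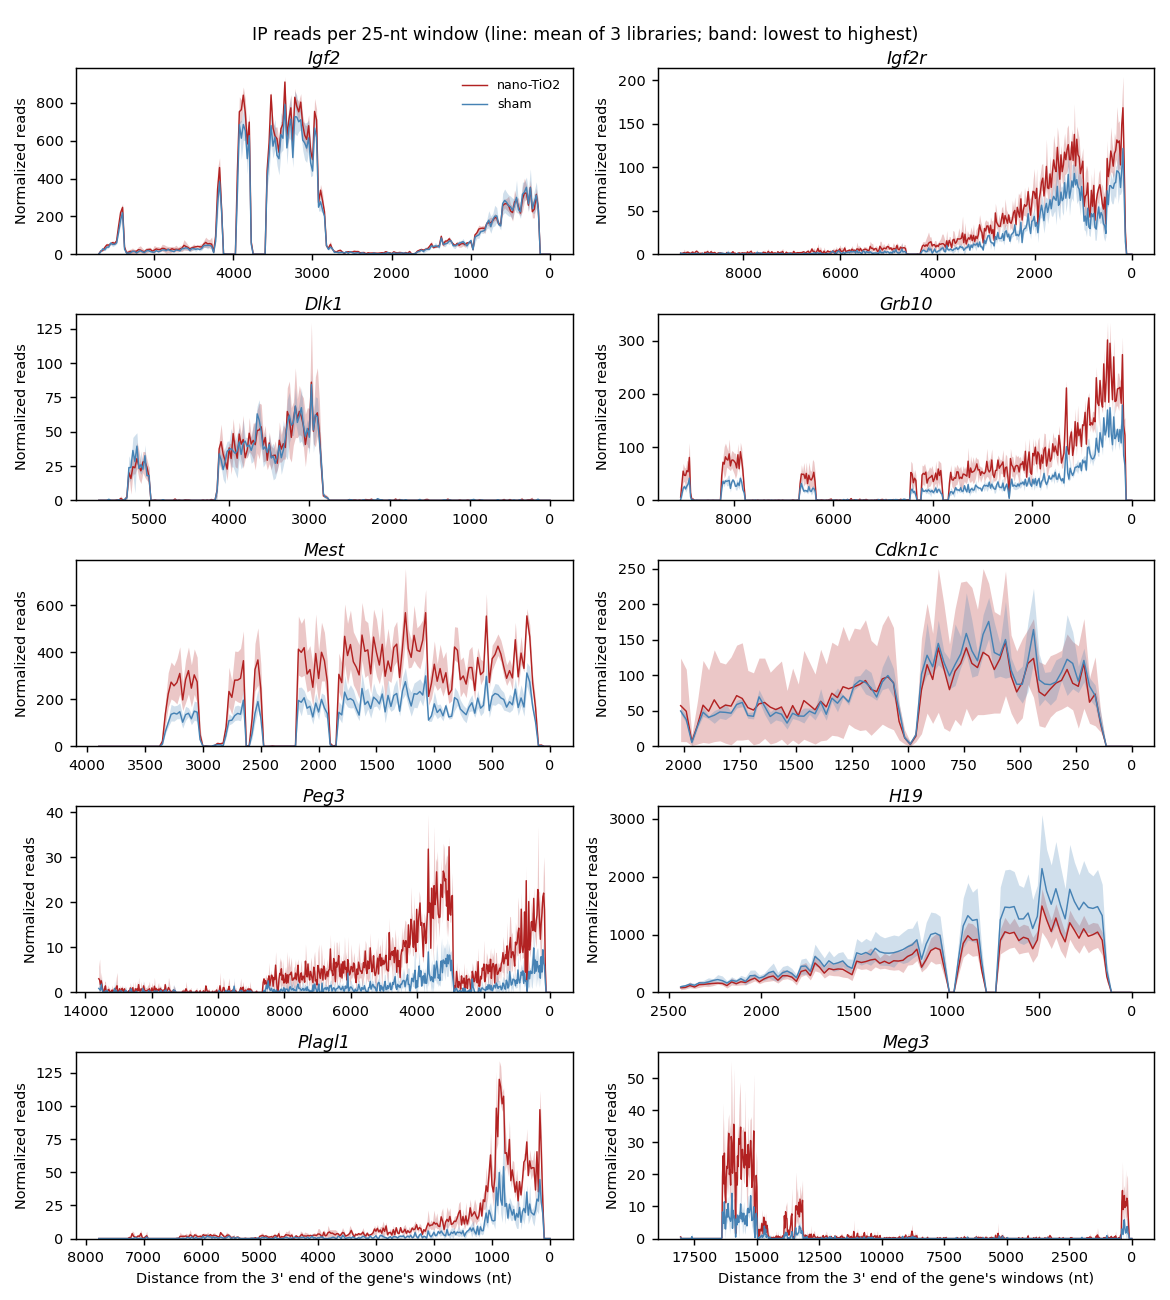
Normalized IP reads per 25-nucleotide window (vertical axis) against distance from the 3′ end along the gene's windows in nucleotides (horizontal axis, 3′ end at the right) for the 10 genes; lines are means of 3 nano-TiO2 (red) and 3 sham (blue) libraries and bands run from the lowest to the highest library. In Peg3, Plagl1, Grb10 and Mest the nano-TiO2 line lies above the sham line along most of the covered windows.

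In Plagl1, Grb10 and Igf2r the window with the most reads lay near the 3′ end. In Plagl1 the highest window lay 875 nucleotides from the 3′ end and held 118, 134 and 108 normalized reads in nano-TiO2 libraries, against 45.9, 53.7 and 50.0 in sham libraries (log2 1.25 ± 0.21, limma adjusted p = 0.0055). In Grb10 it lay 489 nucleotides from the 3′ end and held 273, 297 and 334 in nano-TiO2 libraries, against 166, 182 and 162 in sham libraries (log2 0.82 ± 0.18, limma adjusted p = 0.011). The highest window of Igf2r, 183 nucleotides from the 3′ end, held 154, 147 and 205 in nano-TiO2 libraries, against 131, 139 and 94.6 in sham libraries, and did not pass (log2 0.47 ± 0.21, limma adjusted p = 0.16). Its groups still did not overlap. The windows of Igf2r that passed lay 558 to 3433 nucleotides from the 3′ end. This does not set them apart from the peak. In limma's test of whether a window moved otherwise than its gene, the smallest adjusted p in Igf2r was 0.52.

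In Mest the highest window lay 1075 nucleotides from the 3′ end and held 555, 666 and 482 normalized reads in nano-TiO2 libraries, against 373, 294 and 231 in sham libraries (log2 0.94 ± 0.21, limma adjusted p = 0.012). The highest window of Peg3, at 3666 nucleotides, held 31.8 ± 6.6 in nano-TiO2 libraries and 9.0 ± 8.4 in sham libraries, and that of Meg3, at 15650 nucleotides, held 34.8 ± 8.7 in nano-TiO2 libraries and 10.8 ± 5.9 in sham libraries (SD, n = 3 each). The groups did not overlap in these 3 windows, and the share of all tested windows without overlap was not computed. Each window was chosen for the highest mean over the same 6 libraries. The sham mean of the Peg3 window was under 10, so it was tested because nano-TiO2 was high there and is not counted as support. The other 4 genes had overlapping groups in their highest windows, as they had in their gene levels. Igf2's, 3348 nucleotides from the 3′ end, averaged 910 in nano-TiO2 and 792 in sham libraries (limma adjusted p = 0.51), and H19's, at 485 nucleotides, averaged 1495 in nano-TiO2 and 2141 in sham libraries (limma adjusted p = 0.25). Cdkn1c's, at 639 nucleotides, averaged 127 in nano-TiO2 and 176 in sham libraries (limma adjusted p = 0.22), and Dlk1's, at 2975 nucleotides, averaged 86.2 in nano-TiO2 and 84.4 in sham libraries (limma adjusted p = 0.94).

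The ratio of group means was also taken in parts of each gene, without a test of its spread over libraries. As given above, no window averaging 10 or more normalized reads was called as moving otherwise than its gene. Some 5′-most parts held few sham reads: 20, 17 and 7 in Plagl1, and 13, 18 and 15 in Peg3. In Igf2r the ratio of nano-TiO2 over sham was 1.54, 2.02, 2.57 and 2.48 in 4 equal parts of the window order from the 3′ to the 5′ end. In Plagl1 it was 2.58, 4.36, 3.43 and 4.16, in Peg3 3.60, 4.96, 5.06 and 3.55, and in Grb10 1.88, 2.39, 2.07 and 2.21. Mest was nearly even at 1.84, 1.99, 2.03 and 2.04. In these 5 genes the ratio in the 3′-most part was below those of both middle parts. The same held for Meg3 (3.94, against 4.02 and 4.81), Igf2 (0.996, against 1.26 and 1.13) and H19 (0.69, against 0.74 and 0.78). It did not hold for Dlk1 or Cdkn1c. Igf2 and H19 were not called higher, so the pattern was not particular to genes that rose. The share of all genes with this pattern was not computed.

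The mean share of reads in the 3′-most 25% of the windows was lower in nano-TiO2 for Igf2r, Plagl1, Peg3, Grb10 and Mest. It was also lower for Igf2 (23.0%, against 25.5% in sham) and H19 (40.5%, against 42.3% in sham), and higher for Meg3, Dlk1 and Cdkn1c. In 2 of the 10 genes, Peg3 and Plagl1, this share was lower without overlap, against 6.12% of 7553 genes. Among genes without overlap the opposite was more common: 895 of the 7553 genes had a higher share. How many of all genes had a lower mean share was not computed. In Peg3 the 3′-most share was 46.0%, 41.0% and 50.3% in nano-TiO2 libraries, against 51.1%, 56.8% and 52.3% in sham libraries. The 95% intervals from read counts overlapped between nano-TiO2 replicate 3 (48.6 to 52.1%) and sham replicates 1 (47.7 to 54.4%) and 3 (47.6 to 56.9%). That of nano-TiO2 replicate 1 (44.1 to 47.9%) overlapped the same sham libraries. In Plagl1 the share was 83.2%, 79.9% and 85.7% in nano-TiO2 libraries, against 88.1%, 88.0% and 89.1% in sham libraries. The interval of nano-TiO2 replicate 3 (84.6 to 86.8%) overlapped those of every sham library, that of sham replicate 2 being 85.8 to 89.9%. In Meg3, most of whose reads lay in the 5′-most 25%, that part held 80.9%, 79.2% and 79.3% in nano-TiO2 libraries, against 82.8%, 81.3% and 86.9% in sham libraries. There the interval of nano-TiO2 replicate 1 (78.6 to 83.0%) overlapped those of every sham library, that of sham replicate 1 being 79.7 to 85.6%. These shares of Peg3, Plagl1 and Meg3 each had an exact two-sided permutation p of 0.1, the smallest possible (adjusted p = 0.67 over 30 shares compared). The mean distance of Plagl1 reads from the 3′ end was 1251 ± 121 nucleotides in nano-TiO2 libraries and 1061 ± 49 in sham libraries (SD, n = 3 each; exact permutation p = 0.1, adjusted p = 0.5 over 10 genes). It was the 1 gene of the 10 whose groups did not overlap in this distance. Over 7553 genes, 5.20% had every nano-TiO2 library further from the 3′ end than every sham library and 10.1% had every one nearer. The median difference over these genes was 0.442 percentage points of length, further from the 3′ end in nano-TiO2.

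Each gene was also set against the others by its pattern over the 6 libraries, as the root mean square difference of centred log2 levels. The closest pair was Grb10 with Mest (0.17), and Mest was also nearest to Igf2r (0.23). Igf2 and Dlk1 were nearest to each other (0.24), as were Meg3 and Plagl1 (0.27), and Peg3 was nearest to Meg3 (0.31). H19 was nearest to Dlk1 (0.34). Cdkn1c was the least like any other, with H19 at 0.53.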

How the data were processed

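The authors deposited 3 tables of windows per Ensembl gene for the 6 IP libraries; the submitters' processing notes name HISAT2 2.2.1, Salmon 1.5.2, DESeq2 1.34.0 and GRCm39, with no role or order. The deposited normalized table holds signal per window, per the file headers: 100% of its values were whole multiples (within 0.0001) of 1 step per library, so whole read counts were recovered. The deposited adjusted values are scores in whole numbers, and a filtered table was identical to the normalized one. Strand setting and window making are not given in the sources used here.

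Windows were summed per gene, and features averaging 10 or more were tested with limma 3.58.1 (trend, diffSplice) in R 4.3.3 on log2(value + 1), which understates changes of low genes. Adjusted p-values are Benjamini-Hochberg over all features tested. Ratios, shares and distances were compared with exact permutation tests (SciPy 1.17.1). Alternatives included edgeR 4.0.16 and DESeq2 1.42.0 on the recovered read counts. The fits were tested on simulated data. The 10 genes, their lists and the ratios were chosen with earlier results of these data known. All 10 members are named, each with its highest window. Related gene lists and cell markers needed symbols, and 0 of 48505 IDs could be paired with one through RefSeq. The replicate numbers did not pair the samples. The recovered counts summed to 20205024 to 31523675 per library over all windows, which is not a count of sequenced reads. There were no molecular identifiers, so counting error is not the only error.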

Additional observations from a re-analysis of the deposited data

How the results depend on the processing

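Of the 6 rises in IP level, those of Peg3, Mest and Plagl1 kept direction and call under all 18 alternatives, and Meg3 and Grb10 under 17. The count of genes called was 6676 of 18566 (36.0%) and became 2818 of 8877 (31.7%) with medians of tested windows, where fewer genes could be tested. Scaling shifted the split: 66.7% of calls were higher, against 52.4% under quantile normalization, 45.9% with the length trend removed, 26.0% with window medians and 97.9% with equal totals, which put the median of all genes at 0.61 in place of 0.13. IP windows called numbered 28052 and 12114 to 21647 with 1 library left out. Called windows of the 10 genes, Peg3 and Meg3 included, numbered 418 of 1007 tested. They became 224 of 539 tested at a mean of at least 50, with little change in the share called. Of the same 1007, 256 were called without nano-TiO2 replicate 1 and 238 (17 of them lower) without nano-TiO2 replicate 2. Windows that moved otherwise than their gene numbered 116 of 249423 tested. They numbered 10 of 56749 at a mean of at least 50 and 648 of 1023152 at a mean of at least 1. In adjusted level, 0 genes were called, 5011 with array quality weights, and 0 to 1878 with 1 library left out, the 1878 without sham replicate 2. Signs turned for Dlk1 under quantile normalization (0.20), array weights (0.21), equal totals (0.49), window medians (0.010), edgeR (0.0076) and DESeq2 (0.0076), and it ran from -0.20 to 0.22 with 1 library left out. They turned for Igf2 (-0.29) and Igf2r (-0.026) with the length trend removed, for H19 under quantile normalization (0.10) and equal totals (0.070), and for Cdkn1c under the same 2 (0.020 and 0.12) and in a range of -0.97 to 0.29 with 1 library left out. In adjusted level they turned for Igf2 with TMM (-0.087), H19 with quantile normalization (0.0079) and from -0.094 to 0.0045 with 1 library left out, and Cdkn1c from -0.84 to 0.28. The cause was not tested. With the replicate number as a block, 6415 genes, 31744 windows and 105 within-gene windows were called, with 0 in adjusted level, and the same 6 of the 10 genes rose; deviations of same-numbered libraries correlated at -0.37, 0.18 and 0.02, so the numbers do not pair them. Depth limits the windows of Peg3 and Meg3: their highest windows held 25, 34 and 49 reads and 34, 50 and 31 reads in nano-TiO2 libraries, against 20, 7 and 1 and 9, 16 and 5 in sham libraries.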
